A study of Mus musculus with 6 samples.

Results

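Nuclear receptors and the coregulators that bind them were examined in mouse gastrocnemius muscle expressing a constitutively active aryl hydrocarbon receptor (AHR). The set held 37 genes of the 49315 in the count table, chosen by gene symbol, comprising 31 receptors, 4 coactivators and 2 corepressors. RNA was sequenced from muscles of male C57BL6J mice injected intramuscularly at 5 months of age and harvested 5 months later, with 3 libraries per group. Both groups received adeno-associated virus AAV9 under the human skeletal actin (HSA, ACTA1) promoter, which is active in muscle fibres. The AAV9-HSA-CAAHR virus encoded the ligand-independent receptor (replicates 31, 34 and 36), and the control AAV9-HSA-GFP virus encoded green fluorescent protein (replicates 42, 43 and 46). Uninjected muscle was not analysed here. The labels do not say whether each library came from a separate animal, so p-values measure the spread between these samples.

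Nuclear receptors are transcription factors that bind DNA as monomers, homodimers or heterodimers with a retinoid X receptor (RXR), and many switch between corepressors and coactivators when a lipid-soluble ligand binds. In skeletal muscle the peroxisome proliferator-activated receptors (PPARs) and oestrogen-related receptors (ERRs), together with PGC-1 coactivators, are known for their control of fatty acid oxidation and mitochondrial genes. The NR4A receptors are induced rapidly by exercise and other stimuli, and ROR and REV-ERB receptors act within the circadian clock.

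Library totals ranged from 43432994 to 58825752 counts, and all 5 AHR pathway genes checked, Ahr among them, were higher in AAV9-HSA-CAAHR muscles (log2 fold changes of 2.87 to 7.77). The virus carried the mouse Ahr coding sequence without its ligand binding domain, so counts of Ahr can include the transgene. Of 15847 genes tested, 1205 (7.60%) passed an adjusted p of 0.05, with 481 (3.04%) higher and 724 (4.57%) lower. The libraries of the AAV9-HSA-CAAHR group differed in their slow-fibre transcripts. The summed level of 9 slow-fibre markers, given as CPM (the count relative to the library total, after TMM scaling), was 2818, 661.5 and 2546 in replicates 31, 34 and 36, against 234.9, 343.4 and 474.2 in AAV9-HSA-GFP replicates 42, 43 and 46. None of the 9 passed the threshold with edgeR, although 8 had an unadjusted p under 0.05, and 8 passed with DESeq2 and 9 with limma-voom. Markers of muscle fibres were abundant in every library but lower in AAV9-HSA-CAAHR muscles, with summed CPM of 125400, 167700 and 141500 in replicates 31, 34 and 36 against 198000 to 203200 in the controls. Of these 7 markers, Acta1, Ckm and Tnnt3 passed as lower. The median log2 fold change of the 7 was -0.50, and that of the 37 receptor and coregulator genes was -0.08. The part of the lower fibre markers in the values of the 37 genes, Esr1 and Thra among them, was not tested. Tnnt3, Myh4 and Mylpf of this list also stood among 9 fast-fibre markers. Of those 9, 2 passed as lower, 2 had positive log2 fold changes, and the median was -0.31.

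All 37 genes passed the filter on low counts, and 4 passed the threshold, or 10.8% against the 7.60% of all tested genes. The vitamin D receptor gene Vdr, the oestrogen receptor gene Esr1 and the thyroid hormone receptor gene Thra were lower, and the retinoid X receptor gene Rxrg was higher. The median log2 fold change of the set was -0.08, and that of all tested genes was 0.01. Libraries of the groups did not overlap for 12 of the 37 genes (32.4%), beside 29.9% of all tested genes. The spread between libraries was wide for few genes, with an SD over 40% of the mean for 6 in AAV9-HSA-CAAHR muscles (Ppara, Esrrb, Esrrg and the NR4A genes) and for Esrrb in AAV9-HSA-GFP muscles. In bulk muscle, a loss of cells of one type cannot be told apart from less RNA per cell.

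**Figure D1:**
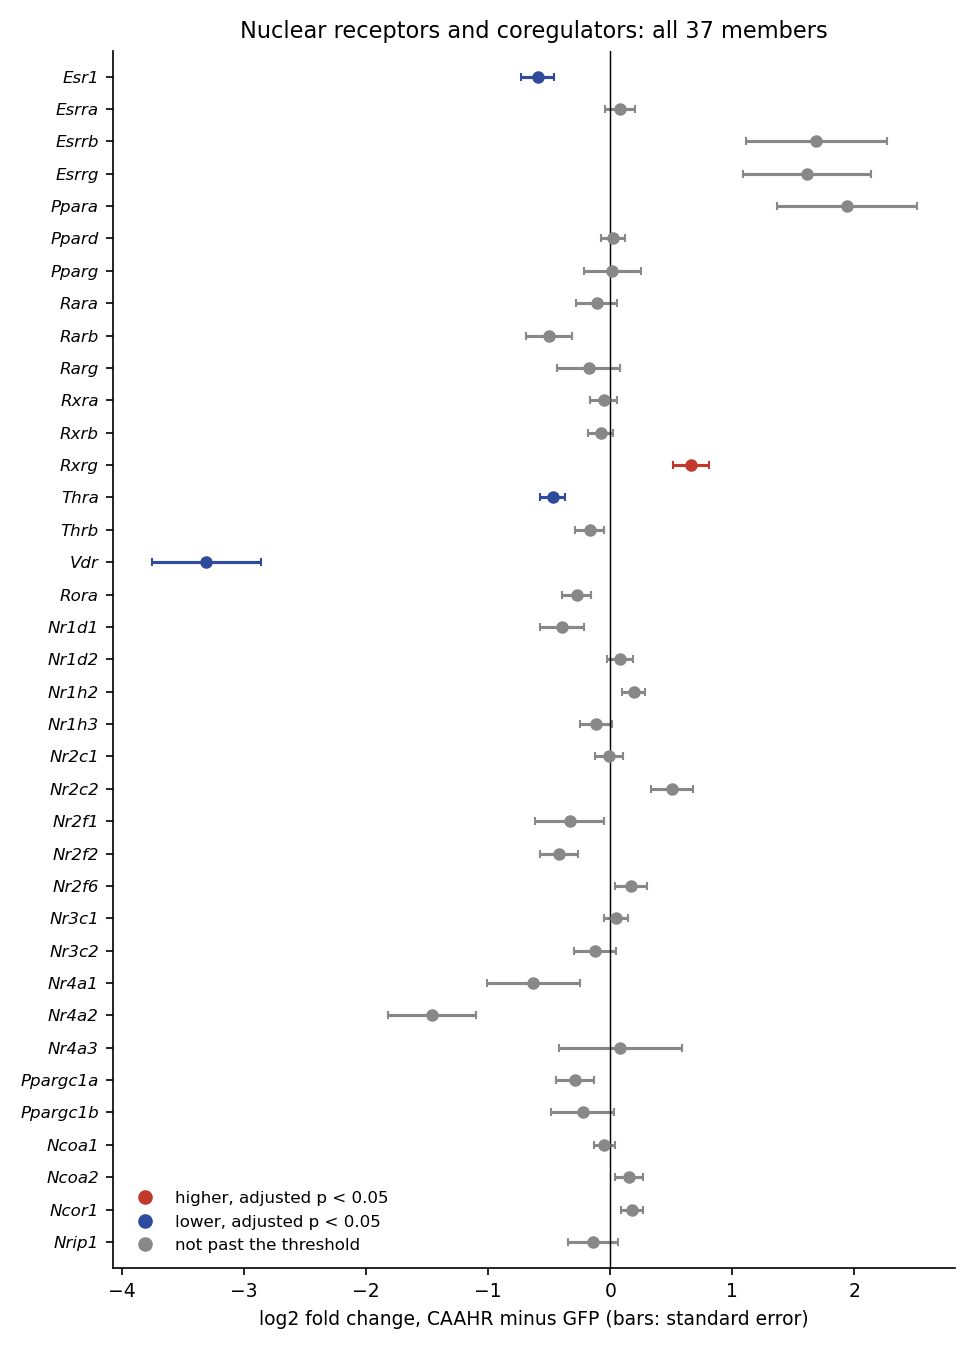
Log2 fold change, AAV9-HSA-CAAHR minus AAV9-HSA-GFP, of the 37 genes, with standard errors as horizontal bars. The 3 genes in blue (Esr1, Thra and Vdr) were lower and the 1 gene in red (Rxrg) was higher at an adjusted p of 0.05, and Ppara, Esrrb and Esrrg lie to the right of zero with wide errors.

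The sequence upstream of the start was examined for the members that changed and for Nr4a2, which lay just outside the threshold. The AHR recognises a xenobiotic response element whose core is GCGTG, and the core was searched on both strands over 250 bases before each RefSeq start (GRCm38.p6). It stood in 9250 of 32851 windows (28.2%) and in 25 of the 52 windows matched to the receptor and coregulator genes (48.1%), whose median GC content was 62.6% against 52.4% for all windows. Windows were searched for 33 of the 37 genes, of which 23 (69.7%) had the core in at least 1 window. The share was 30.9% for all 27025 genes with an entry. Thra and Ncoa2 had no entry, and the windows of Nr3c1 and Ppargc1b were left out. The windows of all genes were not cut in this way, so the shares compare sets chosen differently. The longer form TNGCGTG stood in windows of 4.76% of all genes and of 3 of the 33 (9.09%), Nr1d1, Nrip1 and Rara, none of which passed the threshold. The stretches free of annotated exon bases follow for Vdr, Esr1, Rxrg and Nr4a2 (for Esr1 at its downstream start), with the core in capitals, to show which of them hold it.
Vdr (chr15:97908311-97908546, minus strand): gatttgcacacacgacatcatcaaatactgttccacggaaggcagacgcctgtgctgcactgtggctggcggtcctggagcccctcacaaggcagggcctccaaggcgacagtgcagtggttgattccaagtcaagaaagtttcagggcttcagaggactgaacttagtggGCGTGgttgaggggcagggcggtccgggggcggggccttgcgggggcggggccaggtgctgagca
Esr1 (chr10:4709908-4710154, plus strand): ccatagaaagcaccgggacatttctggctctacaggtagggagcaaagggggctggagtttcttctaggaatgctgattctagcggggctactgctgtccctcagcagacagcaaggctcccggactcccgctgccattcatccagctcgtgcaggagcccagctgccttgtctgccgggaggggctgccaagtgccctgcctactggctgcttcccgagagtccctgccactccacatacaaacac
Rxrg (chr1:167598112-167598361, plus strand): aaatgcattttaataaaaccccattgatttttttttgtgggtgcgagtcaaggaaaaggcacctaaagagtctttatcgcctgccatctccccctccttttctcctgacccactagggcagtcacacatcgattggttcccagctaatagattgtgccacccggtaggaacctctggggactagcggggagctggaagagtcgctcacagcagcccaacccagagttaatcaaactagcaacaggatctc
Nr4a2 (chr2:57124004-57124253, minus strand): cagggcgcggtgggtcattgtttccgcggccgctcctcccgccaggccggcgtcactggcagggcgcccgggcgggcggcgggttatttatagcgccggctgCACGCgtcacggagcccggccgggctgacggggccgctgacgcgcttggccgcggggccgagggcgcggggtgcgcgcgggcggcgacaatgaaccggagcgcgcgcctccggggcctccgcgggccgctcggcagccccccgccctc
The core lay 79 bases before the start of Vdr and, as its reverse complement, 148 bases before that of Nr4a2. Neither strand held it in the windows of Esr1 or Rxrg. A match is a description of letters and not of a bound site.

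Among steroid and related receptors, Esr1 was lower and its relatives of the ERR group were not called. Esr1 (ENSMUSG00000019768, chromosome 10, 4611593 to 5005614, GRCm38) encodes oestrogen receptor alpha, which is activated by oestradiol. Its level was 17.9, 14.8 and 12.8 CPM in AAV9-HSA-CAAHR replicates 31, 34 and 36, and 23.7, 24.4 and 20.6 CPM in AAV9-HSA-GFP replicates 42, 43 and 46. Every AAV9-HSA-CAAHR library lay below every AAV9-HSA-GFP library. The means were 15.1 ± 2.56 and 22.9 ± 2.04 CPM (SD, n = 3), and the log2 fold change of -0.60 ± 0.13 (SE) passed with edgeR's quasi-likelihood test (Benjamini-Hochberg adjusted p = 0.0277). The adjusted p became 0.0512 when libraries were scaled by their totals only, and it was between 0.0191 and 0.0927 when single libraries were left out. Without AAV9-HSA-CAAHR replicate 36, AAV9-HSA-GFP replicate 42 or AAV9-HSA-GFP replicate 43, the fall was no longer called.

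Of 11 listed oestrogen response genes, 8 were tested and 1 passed (12.5%, beside 7.60% of all tested genes). It was the growth factor gene Igf1 (10.5 ± 0.496 CPM under AAV9-HSA-GFP and 5.22 ± 1.28 CPM under AAV9-HSA-CAAHR, log2 fold change -1.01 ± 0.17, edgeR adjusted p = 0.00773). The related receptor genes Esr2 and Pgr were below the filter. The median log2 fold change of the 8 tested genes was -0.36.

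**Figure D2:**
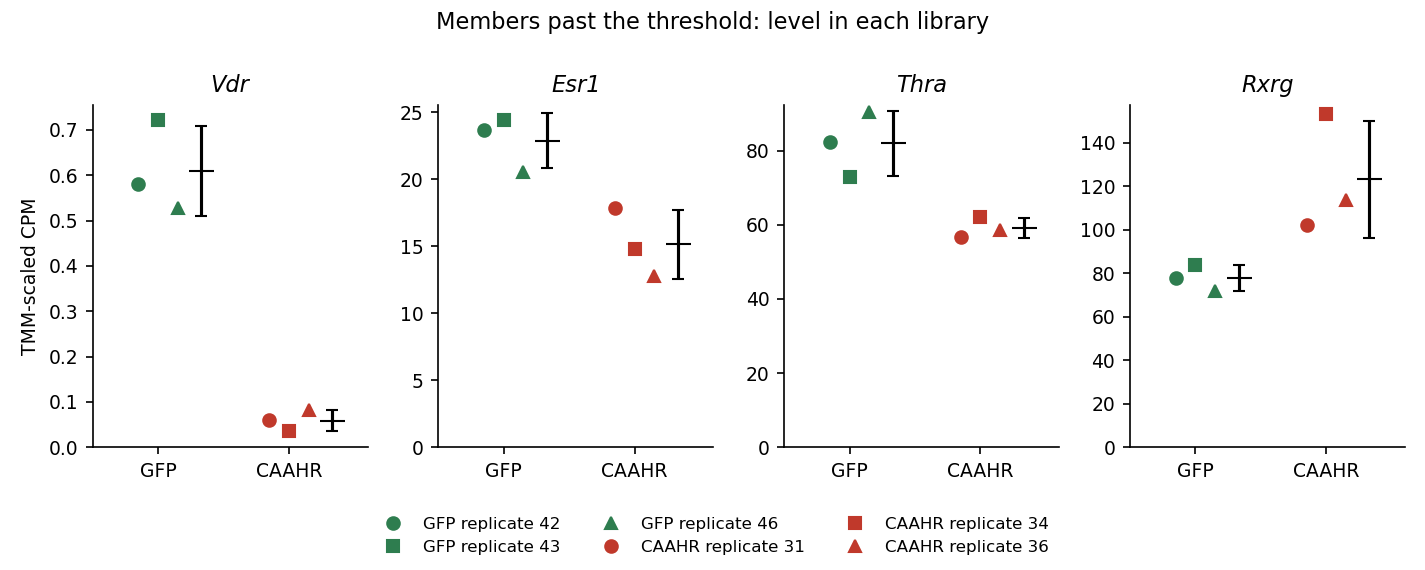
TMM-scaled CPM of the 4 called genes in each library, with the mean and SD of 3 libraries beside the points. The groups do not overlap in any panel, and Vdr was at 0.0350 to 0.0820 CPM in AAV9-HSA-CAAHR muscles.

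Vdr had the largest fall of the 37 genes and the lowest level. Vdr (ENSMUSG00000022479, chromosome 15, 97854425 to 97910630) encodes the receptor for the active form of vitamin D. It was read by 3, 2 and 5 counts in AAV9-HSA-CAAHR replicates 31, 34 and 36, and by 28, 30 and 28 counts in AAV9-HSA-GFP replicates 42, 43 and 46. No AAV9-HSA-CAAHR library came near the lowest control. The log2 fold change was -3.31 ± 0.45 (edgeR adjusted p = 0.00281). As summed counts, 10 against 86, the level was 10.2-fold lower with a 95% exact interval of 5.26 to 21.9, which covers counting error only. Leaving out any of the 6 libraries kept the fall past the threshold. Vdr was not tested where at least 10 counts were required in every library. It passed the filter on low counts only through the AAV9-HSA-GFP libraries, where it was high. Its place among the tested genes and its fall are therefore not independent.

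The level of Vdr in control muscle was 0.610 ± 0.0996 CPM, and immune cell markers had negative log2 fold changes beside it. All 7 B cell and plasma cell markers had negative log2 fold changes and 4 of the 7 passed, their summed CPM ranging from 9.61 to 19.3 under AAV9-HSA-CAAHR and from 127 to 432 under AAV9-HSA-GFP. All 8 macrophage markers had negative values (median -1.15) and none passed, with sums of 15.3 to 25.8 and of 28.8 to 66.5 CPM. T and NK cell markers summed to 1.05 to 1.65 and to 2.59 to 9.13 CPM, and 1 of the 3 that were tested, Cd2, passed as lower. The part of these cells in the Vdr result was not tested. Whether B cell, plasma cell, T and NK cell markers passed the filter on low counts only through the AAV9-HSA-GFP libraries was not examined. Their calls as lower may therefore not be independent of the filter. From these libraries alone, which include no uninjected muscle, a lower level under AAV9-HSA-CAAHR cannot be told apart from a raised level under AAV9-HSA-GFP. This holds for Vdr and for these markers. Of 6 vitamin D metabolism and target genes, only Cyp27a1, which encodes a sterol hydroxylase, was high enough to test. It was at 170 ± 17.8 against 91.9 ± 5.98 CPM, a log2 fold change of 0.89 ± 0.11 (edgeR adjusted p = 0.00182). The vitamin D-degrading enzyme gene Cyp24a1, a classical target of the receptor, had no counts in any library.

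Of the thyroid hormone receptors, Thra fell and Thrb did not pass. Thra (ENSMUSG00000058756, chromosome 11, 98740638 to 98769006) encodes the alpha receptor, which was the more abundant in this muscle. Its level was 56.9, 62.0 and 58.6 CPM in AAV9-HSA-CAAHR replicates 31, 34 and 36, and 82.4, 73.0 and 90.4 CPM in AAV9-HSA-GFP replicates 42, 43 and 46. The groups did not overlap. The log2 fold change was -0.47 ± 0.10 (edgeR adjusted p = 0.0247). It was no longer called without AAV9-HSA-CAAHR replicate 31 or 36 or AAV9-HSA-GFP replicate 42 or 46 (adjusted p up to 0.0910).

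Exons of Thra overlap those of the REV-ERB gene Nr1d1 on the opposite strand over 263 bases, 5.70% of the exon bases of Thra. Whether the libraries were stranded is not given in the sources used here, so counts of the overlap cannot be assigned with certainty. Nr1d1 had a log2 fold change of -0.39 ± 0.18 (edgeR adjusted p = 0.224). Thrb, at 17.0 ± 2.20 against 19.1 ± 1.43 CPM, had a log2 fold change of -0.17 ± 0.12. Among 10 tested genes of thyroid hormone metabolism and response, 2 passed (20%, beside 7.60% of all tested genes). Hr, which encodes the corepressor hairless, was lower (39.2 ± 1.89 against 77.9 ± 24.2 CPM) and Ucp3, an uncoupling protein gene, was higher.

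Rxrg was the only member called higher, while the other retinoid X receptor genes were not called. Rxrg (ENSMUSG00000015843, chromosome 1, 167598384 to 167639623) encodes RXR gamma, a common dimer partner of other receptors. Its level was 102, 153 and 114 CPM in AAV9-HSA-CAAHR replicates 31, 34 and 36, and 77.7, 83.7 and 72.1 CPM in AAV9-HSA-GFP replicates 42, 43 and 46. All AAV9-HSA-CAAHR libraries were above all controls, and replicate 34 was the highest. The log2 fold change was 0.66 ± 0.15 (edgeR adjusted p = 0.0283). The call was lost without AAV9-HSA-CAAHR replicate 36 or without any of the AAV9-HSA-GFP replicates (adjusted p up to 0.113). Rxra and Rxrb had log2 fold changes of -0.05 ± 0.11 and -0.08 ± 0.10.

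Per kilobase of exon, Rxrg made up 50.5 ± 2.66% of the summed RXR level under AAV9-HSA-CAAHR and 38.4 ± 1.61% under AAV9-HSA-GFP. Its share was 48.9%, 53.5% and 49.0% in AAV9-HSA-CAAHR replicates 31, 34 and 36, and 37.8%, 40.3% and 37.2% in AAV9-HSA-GFP replicates 42, 43 and 46. The share of Rxra moved from 48.0 ± 1.91% to 38.7 ± 1.63%, so that the order of Rxra and Rxrg changed. With mean transcript length in place of exon length the share of Rxrg was 33.4% and 23.5%, and Rxra stayed the larger in both groups. The retinoic acid receptor genes Rara, Rarb and Rarg, whose products bind retinoic acid, had group means of at most 11.7 CPM and were not called. Rarb had the largest difference, -0.50 ± 0.19 (log2), and 34.1% of its exon bases overlap Top2b on the opposite strand. Of 12 tested retinoid handling genes, 2 fell (16.7%, beside 7.60% of all tested genes). They were Rbp4, which encodes a retinol carrier, and Aldh1a1, which encodes an enzyme that makes retinoic acid. Adipocyte markers had a median log2 fold change of -2.09 beside them, with 3 of 7 passing as lower, and their part was not tested.

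**Figure D3:**
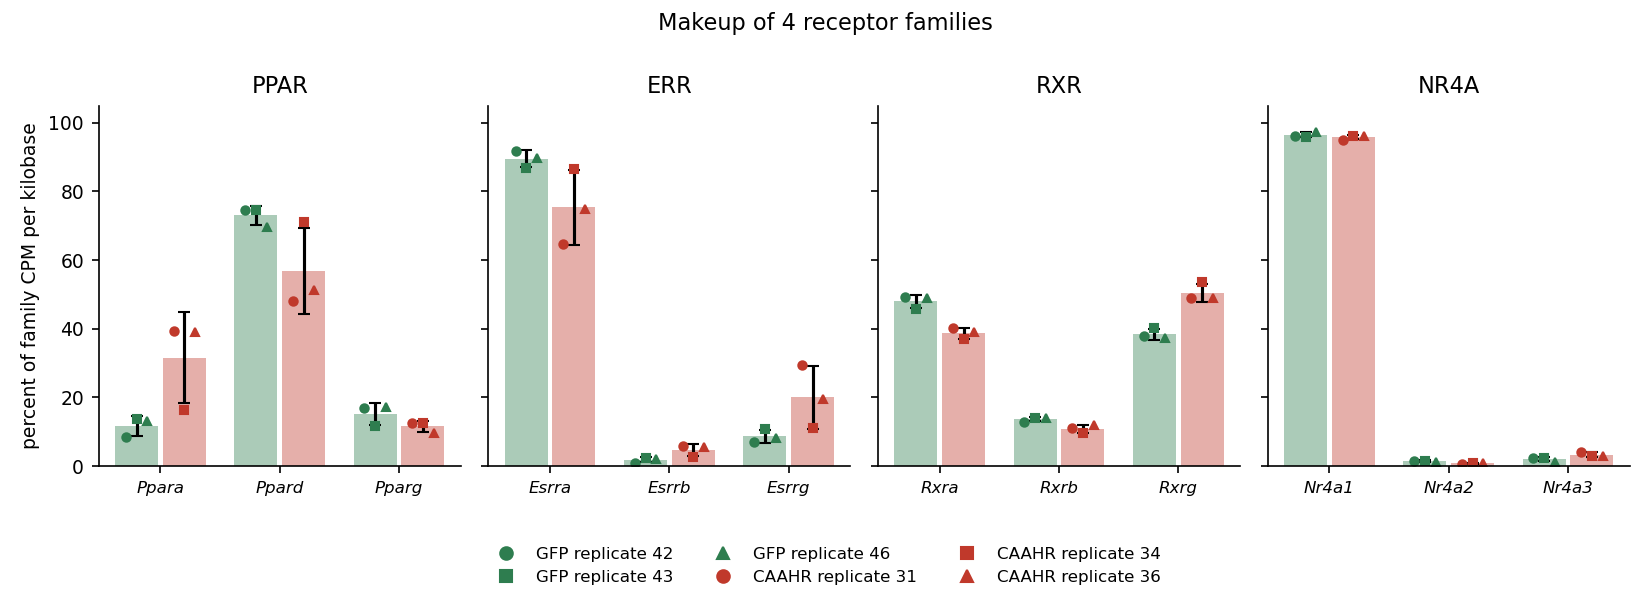
Share of the CPM per kilobase of exon of a receptor family held by each gene, as bars for the mean of 3 libraries with the SD and as points for single libraries. Rxrg holds 38.4% under AAV9-HSA-GFP and 50.5% under AAV9-HSA-CAAHR, Ppara 11.8% and 31.6% with 1 AAV9-HSA-CAAHR library at 16.4%, and Nr4a1 96.5% and 95.8%.

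Ppara, Esrrb and Esrrg, receptor genes linked to oxidative metabolism, had the largest positive values of the set, and none passed the threshold. Ppara encodes the PPAR that is best known for switching on fatty acid oxidation. Its level was 12.7, 3.41 and 13.4 CPM in AAV9-HSA-CAAHR replicates 31, 34 and 36, and 1.70, 2.98 and 3.02 CPM in AAV9-HSA-GFP replicates 42, 43 and 46. Replicate 34 was just above the controls and the other two AAV9-HSA-CAAHR libraries were far above them. The log2 fold change was 1.94 ± 0.57 (edgeR adjusted p = 0.109).

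Esrrg, encoding the ERR that is enriched in slow fibres, was at 75.3, 20.6 and 48.4 CPM in AAV9-HSA-CAAHR replicates 31, 34 and 36, and at 10.9, 19.5 and 16.8 CPM in AAV9-HSA-GFP replicates 42, 43 and 46 (log2 fold change 1.61 ± 0.53, edgeR adjusted p = 0.148). Esrrb, which encodes the beta form, was at 14.4, 4.62 and 13.6 CPM against 1.596, 4.04 and 4.48 CPM (log2 fold change 1.69 ± 0.58, edgeR adjusted p = 0.159). For all 3 genes the groups did not overlap and replicate 34 was the lowest of its group. The slow-fibre marker sum, at 661.5 CPM in replicate 34, was lowest there as well, and its part in these values was not tested. The sum was highest in replicate 31, whereas Ppara was highest in replicate 36. Replicate 34 was also the lowest of its group for members such as Esrra, Ppard and Pparg. For others, such as Rxra, Rxrg and Thra, it was the highest.

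**Figure D4:**
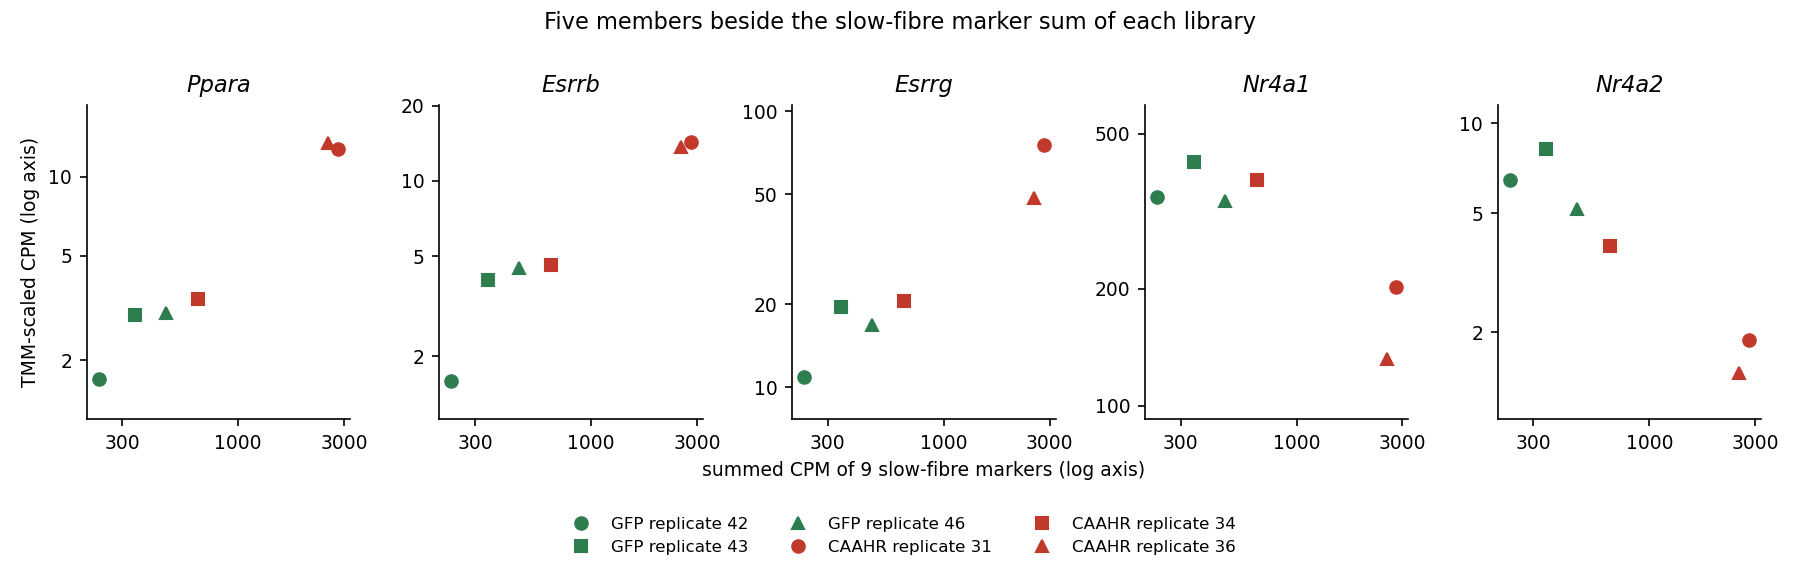
CPM of 5 genes (vertical, log axis) against the summed CPM of 9 slow-fibre markers (horizontal, log axis), 1 point per library. For Ppara, Esrrb and Esrrg the AAV9-HSA-CAAHR replicate 34 lies beside the controls, and for Nr4a1 and Nr4a2 it is the highest of its group.

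Without replicate 34, Ppara, Esrrb and Esrrg passed, with log2 fold changes of 2.34, 2.04 and 1.96. Their edgeR quasi-likelihood adjusted p were then 2.82e-04, 0.0341 and 0.0153. With any other single library left out, none of these genes passed. The adjusted p of the same test were then 0.206 to 0.267 for Ppara, 0.236 to 0.34 for Esrrb and 0.236 to 0.321 for Esrrg. Without replicate 34, the number of the 37 genes called was 11 in place of 4. That of all genes was 1727 of 16180 (10.7%) in place of 1205 (7.60%). Ppara and Esrrg also passed with DESeq2, with limma-voom and with edgeR without robust estimation, and Esrrb with limma-voom. The remaining PPAR and ERR genes were close to level. Esrra, the most abundant ERR gene and a partner of PGC-1, was at 121 ± 9.66 against 114 ± 16.7 CPM, and Ppard, which encodes the PPAR most abundant in muscle per kilobase here, was at 31.3 ± 2.79 against 30.8 ± 1.21 CPM. Pparg, encoding the receptor of the adipocyte programme, was at 2.56 ± 0.546 against 2.52 ± 0.564 CPM. All 7 adipocyte markers had negative log2 fold changes (median -2.09) and 3 passed, with sums of 86.5 to 139 CPM in AAV9-HSA-CAAHR and 109 to 231 CPM in AAV9-HSA-GFP muscles.

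Genes that PPARs are known to switch on mostly had positive log2 fold changes. Of 26 listed PPAR target genes, all tested, 6 rose and none fell (23.1% called, beside 7.60% of all genes), and 25 had a positive log2 fold change with a median of 0.68. Their summed level was 6879, 4416 and 6576 CPM in AAV9-HSA-CAAHR replicates 31, 34 and 36, and 3321 to 3439 CPM in AAV9-HSA-GFP muscles. Replicate 34 was the lowest of its group, as for the slow-fibre markers, and their part in these values was not tested. Pdk4, encoding a kinase that restrains pyruvate use, was at 1220 ± 236 against 449 ± 147 CPM, a log2 fold change of 1.44 ± 0.26. Ucp3, which also stood in the thyroid hormone list, had a log2 fold change of 1.56 ± 0.33. That of Pex11a, which acts in peroxisome division, was 1.09 ± 0.11. The acyl-CoA thioesterase gene Acot2 and the malonyl-CoA decarboxylase gene Mlycd rose by 0.80 ± 0.17 and 0.53 ± 0.13 on the log2 scale.

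The count of PPAR target genes called higher was 18 without AAV9-HSA-CAAHR replicate 34, 2 without replicate 31 and 2 without replicate 36. It was 4 without AAV9-HSA-GFP replicate 42, 43 or 46. It was 14 with DESeq2, 14 without a filter on low counts and 13 with limma-voom, and 1 gene passed as lower with DESeq2, with upper quartile scaling and without a filter. For 26 listed ERR and PGC-1 target genes, none passed with edgeR, 2 had an unadjusted p under 0.05, and the median log2 fold change was 0.12. Of these 26, 2 passed as higher with DESeq2 and none with limma-voom.

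**Figure D5:**
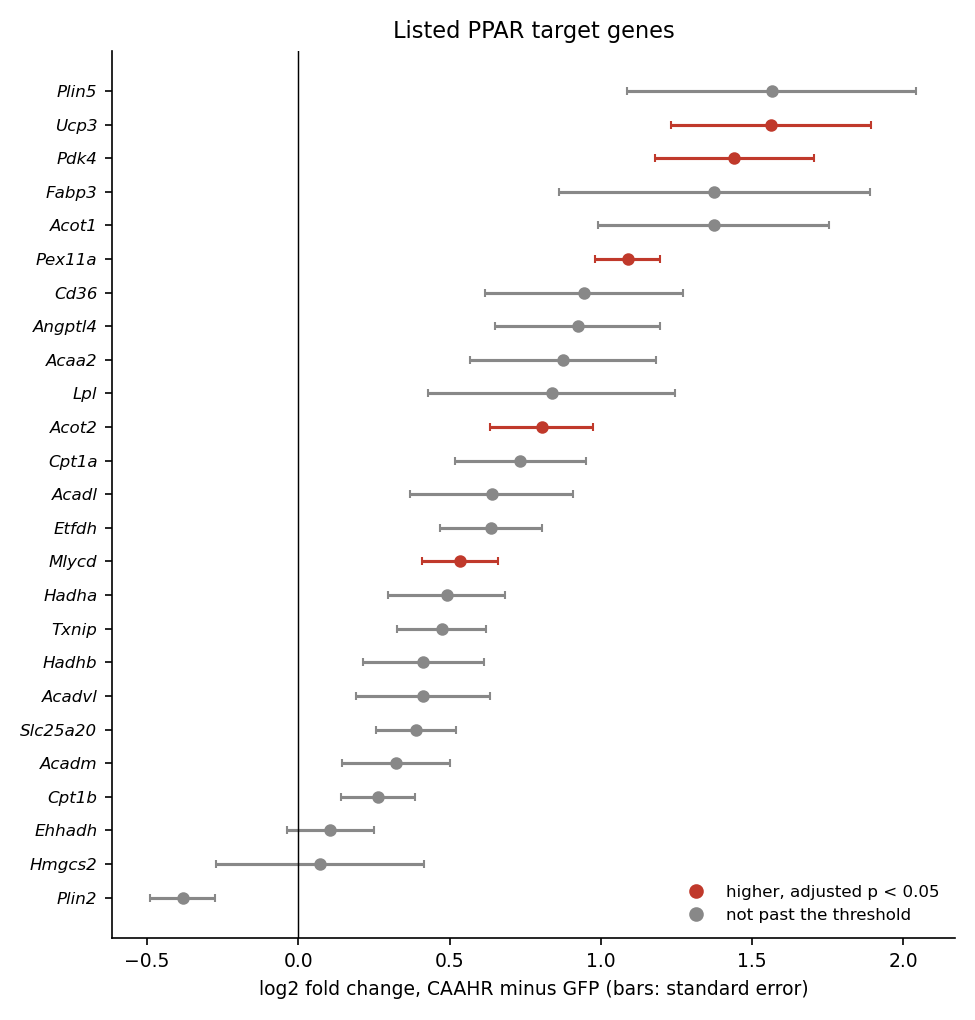
Log2 fold change, AAV9-HSA-CAAHR minus AAV9-HSA-GFP, of 25 of the listed PPAR target genes, with standard errors as bars. The 5 genes in red passed an adjusted p of 0.05, and Plin2 alone is below zero.

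The NR4A receptors, orphan receptors that respond early to contraction and stress signals, were led by Nr4a1, the most abundant of the 37 genes per kilobase of exon. Nr4a1 was at 202, 380.0 and 132 CPM in AAV9-HSA-CAAHR replicates 31, 34 and 36, and at 345, 423 and 335 CPM in AAV9-HSA-GFP replicates 42, 43 and 46. Replicate 34 lay within the controls and the others below them, and the log2 fold change was -0.63 ± 0.38 (edgeR adjusted p = 0.383). Without replicate 34 it was -1.15 with an adjusted p of 0.00608 by the same test. With any other single library left out, the adjusted p of that test was 0.498 to 0.631.

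Nr4a2 missed the threshold narrowly. It was at 1.88, 3.89 and 1.46 CPM in AAV9-HSA-CAAHR replicates 31, 34 and 36, and at 6.49, 8.24 and 5.17 CPM in AAV9-HSA-GFP replicates 42, 43 and 46. All AAV9-HSA-CAAHR libraries were below all controls, with a log2 fold change of -1.46 ± 0.36 (edgeR adjusted p = 0.0512). It passed with DESeq2 (adjusted p = 1.84e-04) and with limma-voom (adjusted p = 0.0104). Nr4a3, at 14.1 ± 6.87 against 13.3 ± 5.29 CPM, overlapped between groups. Of 10 glucose-use genes linked to NR4A, 1 passed (10%, beside 7.60% of all tested genes). It was Fbp2, which encodes the muscle fructose bisphosphatase and was lower (log2 fold change -0.52 ± 0.11).

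The receptors of the circadian clock were not called. Nr1d1 was at 145 ± 15.9 against 191 ± 46.7 CPM, and Nr1d2, the second REV-ERB gene, at 100.4 ± 7.42 against 94.9 ± 8.70 CPM. Rora, which encodes an activator at the same response elements, had a log2 fold change of -0.28 ± 0.12 (edgeR adjusted p = 0.202). Of 15 clock genes listed beside them, 2 fell (13.3%, beside 7.60% of all tested genes). They were the bZIP factor gene Hlf (log2 fold change -0.52 ± 0.10) and the repressor gene Bhlhe40 (-0.68 ± 0.11).

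Among the remaining receptors, no gene was called. The liver X receptor genes Nr1h2 and Nr1h3, whose products sense oxysterols, had log2 fold changes of 0.19 ± 0.10 and -0.12 ± 0.13. Nr2c2, the testicular orphan receptor gene TR4, was at 8.23, 5.97 and 9.37 CPM in AAV9-HSA-CAAHR replicates 31, 34 and 36, and at 5.80, 5.26 and 5.51 CPM in AAV9-HSA-GFP replicates 42, 43 and 46 (edgeR adjusted p = 0.105). Its groups did not overlap, and 30.7% of its exon bases overlap Mrps25 on the opposite strand. Nr2c1, the gene of the related TR2, was at 8.10 ± 0.295 against 8.15 ± 0.555 CPM.

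The COUP-TF genes Nr2f1 and Nr2f2, which act in vessel and tissue development, had log2 fold changes of -0.33 ± 0.28 and -0.42 ± 0.16, and the groups of Nr2f2 did not overlap. For Nr2f6, at 0.17 ± 0.13, the overlap with Ocel1 on the opposite strand covered 54.4% of exon bases. The glucocorticoid receptor gene Nr3c1 and the mineralocorticoid receptor gene Nr3c2 had values of 0.05 ± 0.10 and -0.12 ± 0.17. Of 18 glucocorticoid receptor target genes, 3 passed (16.7%, beside 7.60% of all tested genes). The factor gene Klf15 rose (0.61 ± 0.14) and the metallothionein genes Mt1 (-1.41 ± 0.26) and Mt2 (-1.35 ± 0.19) fell. Of 10 tested liver X receptor target genes, 2 fell (20%, beside 7.60% of all tested genes). They were the desaturase gene Scd1 (-2.81 ± 0.55) and the apolipoprotein gene Apoe (-0.96 ± 0.14). Adipocyte and macrophage markers, with median log2 fold changes of -2.09 and -1.15, had negative values beside them, and their part was not tested.

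None of the 6 coregulators passed. Ppargc1a and Ppargc1b, encoding the PGC-1 coactivators, had log2 fold changes of -0.29 ± 0.16 and -0.23 ± 0.26. The p160 coactivator genes Ncoa1 and Ncoa2 were at -0.05 ± 0.09 and 0.16 ± 0.12. The corepressor gene Ncor1, whose product recruits histone deacetylase, was at 113 ± 6.30 against 100.3 ± 3.86 CPM without overlap, a log2 fold change of 0.18 ± 0.09 (edgeR adjusted p = 0.277). Nrip1, which encodes the corepressor RIP140, had a value of -0.14 ± 0.21. Of 25 other coregulator genes, 2 passed (8%, close to the 7.60% of all tested genes). The coregulator gene Fhl2 rose (8.40 ± 5.01 against 1.48 ± 0.294 CPM) and the corepressor subunit gene Gps2 fell (42.5 ± 0.881 against 54.9 ± 4.14 CPM).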

How the data were processed

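Poly(A)-selected RNA of gastrocnemius muscle was sequenced as paired ends. As described by the authors and the labels, Trimmomatic 0.36 trimmed the reads, STAR 2.5.2b aligned them to GRCm38, and featureCounts summed unique exonic reads by gene. The deposited values were raw counts, not normalised.

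Groups were compared with edgeR 4.0.16 under R 4.3.3 (filterByExpr, TMM scaling, robust quasi-likelihood F test), which left 15847 genes, and p-values were adjusted over all of them by the Benjamini-Hochberg method at 0.05. Values per library are TMM-scaled CPM, and standard errors were derived from the F statistic. Positions and exon lengths came from GENCODE mouse release 21 (GRCm38), which held 99.5% of identifiers. Alternatives were DESeq2 1.42.0, limma 3.58.1 voom, other scalings, other filters and leaving out each library. The fit was tested on simulated counts. All 37 genes were named, and of each context or marker list the genes past the threshold, at most 8 by smallest p. Genes named beside these, such as Plin2, Esr2, Pgr and Cyp24a1, were chosen after their values were seen. Results of 2 context genes are not reported here. The 37 genes and the lists were chosen with earlier results of these data known. Library totals were 43432994 to 58825752 counts, and intervals cover counting error only.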

Additional observations from a re-analysis of the deposited data

How the results depend on the processing

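With 3 libraries per group, leaving out 1 library moved many calls. Of the 37 genes, 4 were called, beside 7.60% of all tested genes. Without a filter on low counts 9 were called (7 lower and 2 higher), beside 8.62% of all tested genes. With at least 10 counts required in every library, 3 of the 36 tested members were called, beside 7.14%. Scaling by library size only gave 4 calls (beside 9.31%), upper quartile 5 (beside 8.51%) and DESeq2 size factors 4 (beside 7.72%). With edgeR without robust estimation 7 were called (3 higher), beside 8.07%. DESeq2 called 7 (3 higher), beside 12.1%, and limma-voom 8 (4 higher), beside 9.22%. The number was 1 to 11 when single libraries were left out, beside 3.28% to 10.7% of all tested genes. Of these, 0 to 5 were higher and 1 to 6 lower, and 1 gene remained without AAV9-HSA-CAAHR replicate 36 or AAV9-HSA-GFP replicate 42. Context genes called numbered 22 of 163 tested (13.5%, beside 7.60%), against 50 without a filter, 48 with DESeq2 and 8 to 45 with single libraries left out. All genes called numbered 1205, against 2470 without a filter, 1923 with DESeq2 and 530 to 1727 with single libraries left out. With library size only, the median log2 fold change of all genes was 0.09, and Esr1 was at -0.51 (adjusted p = 0.0512 by edgeR).

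For single genes, 517 log2 fold changes were recomputed, of which 454 kept their direction and their side of the threshold. Esrrb passed with limma-voom (1.88). Esrrg passed with edgeR without robust estimation (1.61), DESeq2 (1.598) and limma-voom (1.59), and Ppara under the same 3 (1.94, 1.93 and 2.01). Without a filter, Rarb (-0.49), Nr1d1 (-0.38), Nr2c2 (0.52), Nr2f2 (-0.41) and Nr4a2 (-1.44) passed. Nr4a2 also passed with library size only (-1.39), upper quartile (-1.53), edgeR without robust estimation (-1.46), DESeq2 (-1.47) and limma-voom (-1.81). With single libraries left out, values ranged from -0.74 to -0.49 for Esr1, from 0.47 to 0.78 for Rxrg and from -0.55 to -0.40 for Thra, and some of these were not called. Other ranges that crossed the threshold were 1.35 to 2.04 for Esrrb, 1.13 to 1.96 for Esrrg, 1.64 to 2.34 for Ppara, -0.58 to -0.25 for Nr1d1, 0.35 to 0.66 for Nr2c2, -0.58 to -0.26 for Nr2f2, -1.15 to -0.34 for Nr4a1 and -2.00 to -1.20 for Nr4a2.

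The direction reversed 26 times, only for genes not called under either setting. With upper quartile scaling the log2 fold change became -0.052 for Ppard, -0.057 for Pparg and -0.025 for Nr3c1. With library size only it became 0.025 for Rxra, 0.004 for Rxrb, 0.074 for Nr2c1 and 0.035 for Ncoa1. Nr2c1 was at 0.006 without a filter, and Nr4a3 at -0.34 with limma-voom. With single libraries left out, ranges across zero were -0.007 to 0.20 for Esrra, -0.060 to 0.064 for Ppard, -0.15 to 0.17 for Pparg, -0.26 to 0.086 for Rara, -0.48 to 0.053 for Rarg, -0.16 to 0.013 for Rxra, -0.14 to 0.003 for Rxrb, -0.043 to 0.052 for Nr2c1, -0.031 to 0.115 for Nr3c1, -0.31 to 0.001 for Nr3c2, -0.28 to 0.42 for Nr4a3, -0.45 to 0.12 for Ppargc1b and -0.28 to 0.16 for Nrip1.

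When mean transcript length replaced exon length, 11 of 21 family shares in AAV9-HSA-CAAHR muscles and 15 of 21 in AAV9-HSA-GFP muscles moved by more than 1 SD. In AAV9-HSA-CAAHR muscles these became 8.12% for Pparg, 50.6% for Rxra, 16.0% for Rxrb, 33.4% for Rxrg, 27.6% for Rara, 87.1% for Thra, 12.9% for Thrb, 61.5% for Nr1d1, 38.5% for Nr1d2, 96.5% for Nr4a1 and 0.672% for Nr4a2. In AAV9-HSA-GFP muscles these became 7.67% for Ppara, 82.5% for Ppard, 9.81% for Pparg, 93.6% for Esrra, 5.05% for Esrrg, 58.0% for Rxra, 18.6% for Rxrb, 23.5% for Rxrg, 24.3% for Rara, 41.5% for Rarg, 89.3% for Thra, 10.7% for Thrb, 68.3% for Nr1d1, 31.7% for Nr1d2 and 1.19% for Nr4a2. The cause of these changes beyond the lengths and libraries named was not tested. No paired analysis was possible because no replicate number occurs in both groups. Depth limits Vdr most, since it rests on 10 and 86 counts.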
